A study of Mus musculus with 75 samples.

Results

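The 10 genes described here are the Cyp2b and Cyp2c cytochrome P450 genes Cyp2b9, Cyp2b10, Cyp2b13, Cyp2c29, Cyp2c37, Cyp2c38, Cyp2c39, Cyp2c50, Cyp2c55 and Cyp2c70, found by gene symbol in the array annotation. Of these, 9 had a probe set, 1 each, among the 38385 probe sets of the array: 3 Cyp2b genes of chromosome 7 and 6 Cyp2c genes of chromosome 19. No listed probe set carried Cyp2c37, which was not analysed here. Expression was measured on 75 microarrays of liver and epididymal fat from male C57BL/6 mice. CB1-/- mice, which lack the cannabinoid receptor CB1 in all tissues and had been crossed onto C57BL/6J and then C57BL/6N, were compared with control littermates, called wild-type here. From 2 months of age the mice ate a high-fat diet with 59.4% of energy from fat, or chow with 13%, for 14 weeks. They then received AM251, an inverse agonist of CB1, by gavage at 10 mg per kg on each of 2 days, or vehicle, and tissue was collected in the morning after the second dose. The 8 liver groups were high-fat knockout with AM251 and with vehicle, high-fat wild-type with AM251 and with vehicle, chow knockout with AM251 and with vehicle, and chow wild-type with AM251 and with vehicle. Each held 5 mice, except the high-fat knockout vehicle group with 4, for 39 liver arrays. The same combinations in fat gave 36 arrays in groups of 3 to 5.

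Cytochromes P450 of the Cyp2b and Cyp2c families are monooxygenases of the hepatocyte endoplasmic reticulum that oxidise drugs, steroids and fatty acids. Several of their genes are switched on by foreign compounds through the nuclear receptors CAR (Nr1i3) and PXR (Nr1i2), and Cyp2b10 is the standard mouse reporter of CAR activity. Other members depend on sex and on growth hormone: Cyp2b9 and Cyp2b13 are known as female-predominant liver genes in adult mice.

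The 250 bases before the annotated start are shown for the 3 Cyp2b genes, because Cyp2b9 and Cyp2b13 nearly share this stretch, and for Cyp2c29 and Cyp2c55, the members with the clearest AM251 responses. Sequences are from RefSeq, build GRCm38.p6, read on the strand of the gene; capitals mark the nuclear receptor half-site AGGTCA, where present.
Cyp2b9 (chr7:26173159-26173408, plus strand): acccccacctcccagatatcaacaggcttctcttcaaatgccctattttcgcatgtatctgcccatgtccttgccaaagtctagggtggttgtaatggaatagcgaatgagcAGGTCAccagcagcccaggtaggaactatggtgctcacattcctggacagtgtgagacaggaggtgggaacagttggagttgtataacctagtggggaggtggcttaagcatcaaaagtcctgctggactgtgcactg
Cyp2b13 (chr7:26061245-26061494, plus strand): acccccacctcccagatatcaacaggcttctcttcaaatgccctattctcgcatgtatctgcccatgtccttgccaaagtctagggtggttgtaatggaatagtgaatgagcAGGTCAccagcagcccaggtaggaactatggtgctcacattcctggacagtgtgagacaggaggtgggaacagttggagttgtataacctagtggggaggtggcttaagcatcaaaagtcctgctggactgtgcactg
Cyp2b10 (chr7:25897408-25897657, plus strand): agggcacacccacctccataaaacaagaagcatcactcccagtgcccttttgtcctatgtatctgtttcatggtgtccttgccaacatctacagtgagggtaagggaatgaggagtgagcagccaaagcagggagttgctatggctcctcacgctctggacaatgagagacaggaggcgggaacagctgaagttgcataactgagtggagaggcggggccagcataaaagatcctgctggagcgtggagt
Cyp2c29 (chr19:39286835-39287084, plus strand): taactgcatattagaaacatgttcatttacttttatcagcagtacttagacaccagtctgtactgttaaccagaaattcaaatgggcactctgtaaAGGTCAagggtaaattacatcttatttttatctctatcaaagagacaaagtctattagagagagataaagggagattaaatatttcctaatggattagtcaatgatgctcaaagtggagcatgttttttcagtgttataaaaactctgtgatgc
Cyp2c55 (chr19:39006769-39007018, plus strand): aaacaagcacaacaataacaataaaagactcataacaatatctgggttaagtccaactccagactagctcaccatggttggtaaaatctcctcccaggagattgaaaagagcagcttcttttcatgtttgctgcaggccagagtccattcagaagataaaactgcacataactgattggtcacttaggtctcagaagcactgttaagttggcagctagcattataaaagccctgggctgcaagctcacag
The windows of Cyp2b9 and Cyp2b13 were identical at 248 of 250 bases (99.2%); counted from 1 at the first base shown, the differences from Cyp2b9 to Cyp2b13 were T48C and C104T. Cyp2b10 matched Cyp2b9 in 71.0% of aligned columns. On either strand, AGGTCA was found in the windows of 5 of the 10 genes: 138 bases before the start in Cyp2b9 and in Cyp2b13, 154 in Cyp2c29, 25 in Cyp2c39 and 74 in Cyp2c70. The variant AGTTCA was found in Cyp2c50, and in a second window listed for Cyp2c39 that is not among these 10. Of 32851 promoter windows of this length, 14.0% held AGGTCA and 11.8% AGTTCA. A direct repeat of AGGTCA with 4 bases between its copies and the STAT motif TTCNNNGAA were in none of the 10 windows, against 0.0152% and 7.02% of all windows, and TATAAA was in 4 of the 10, those of Cyp2c29, Cyp2c38, Cyp2c55 and Cyp2c70, against 12.4% of all windows. These matches describe letters in short windows and no binding was measured.

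Levels are log2 of the authors' normalized intensity, so a step of 1 is a doubling, and changes are log2 differences ± standard error from limma over all 38385 probe sets with Benjamini-Hochberg adjustment; a call is an adjusted p under 0.05. Levels of different probe sets cannot be set against each other. Values in fat are given beside those in liver only as a description, since the tissues appear to have been normalized apart. The tissue labels fitted their markers: Alb lay at 14.68 to 14.96 in liver and 4.14 to 8.49 in fat, and Adipoq at 2.68 to 3.56 in liver and 13.53 to 14.07 in fat. The mean level of 7 hepatocyte markers ran from 12.74 to 13.23 over all liver arrays. In high-fat wild-type mice it was 12.77 to 13.03 with AM251 (median 12.78) and 12.86 to 13.17 with vehicle (median 12.98). High-fat knockout AM251 mice had 13.04 to 13.22, above all high-fat wild-type AM251 mice. Neither probe set of Cnr1, the CB1 gene, separated the genotypes: in fat the brighter one spanned 4.95 to 7.33 in knockouts and 5.03 to 8.02 in wild-type mice, and in liver it lay between 2.47 and 3.03 in knockouts and between 2.30 and 2.81 in wild-type mice, so the genotype labels were not checked by this gene. Chow knockout vehicle mice 17 and 15 had the lowest mean correlations with the other liver arrays, 0.9635 and 0.9822, and the changes, calls and shares of probe sets called that use that group are also given without them. In whole liver, fewer cells of a type and less RNA per cell cannot be told apart.

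AM251 raised a small part of the family. In high-fat-fed wild-type livers Cyp2b10, Cyp2c29 and Cyp2c50 rose, 3 of 9 members, where 1.22% of all probe sets were called and 0.539% rose. In high-fat-fed knockout livers Cyp2c55 and Cyp2c29 rose, 2 of 9, and these were the only 2 of 38385 probe sets called (0.00521%). In chow-fed knockouts Cyp2c29 rose, 1 of 9, where 0.125% of all probe sets were called and 0.0938% rose; without mice 15 and 17 0 of 9 members and 0.00261% of all probe sets were called. In chow-fed wild-type livers 0 of 9 were called and 0% of all probe sets; at an unadjusted p under 0.05 limma gave 1 member and 4290 probe sets. As a mean over the 4 combinations of diet and genotype, Cyp2c29, Cyp2b10 and Cyp2c55 rose, 3 of 9, where 0.19% of all probe sets were called and 0.0599% rose. Without mice 15 and 17 these 3 means stayed called, at 0.80 for Cyp2c29 (limma adjusted p = 1.64e-10) and 1.03 for Cyp2c55 (8.36e-05), where 0.214% of all probe sets were called and 0.0625% rose. No member was called lower in any of these 5 comparisons in the main fit. With high-fat wild-type vehicle mouse 5 left out, Cyp2b13 was called lower with AM251 in high-fat-fed wild-type mice (-0.52, limma adjusted p = 0.0188). At an unadjusted p under 0.05 limma gave 6 members and 3679 probe sets in high-fat-fed wild-type mice. They were the 3 that rose, and Cyp2c70 (-0.59), Cyp2b13 (-0.40) and Cyp2c39 (-0.23), which were lower with AM251 and not called. The median log2 change of the 9 members was 0.60 in high-fat-fed knockouts and -0.23 in high-fat-fed wild-type mice, against -0.025 and -0.01 over all probe sets.

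**Figure D1:**
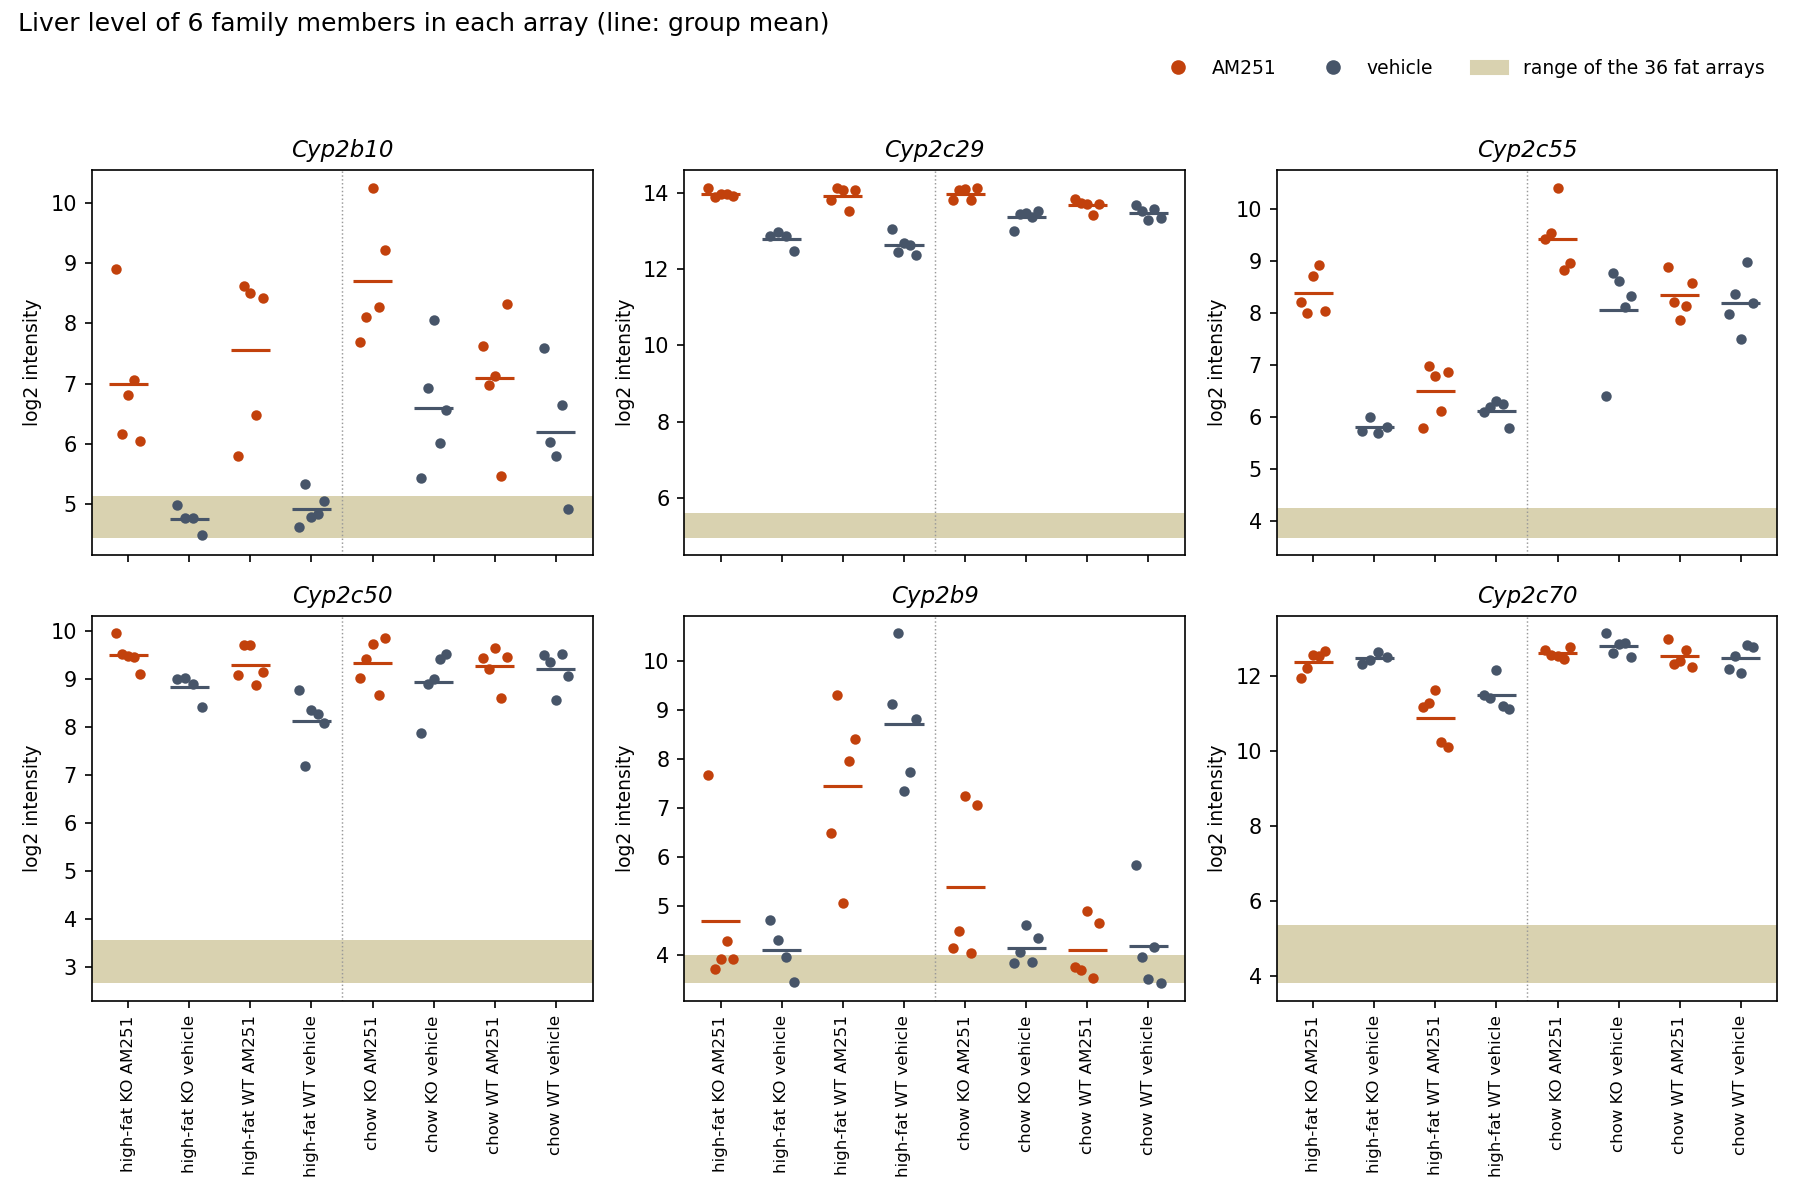
Log2 intensity of 6 members in every liver array (points) by group, with the group mean as a line; the band is the range of the 36 fat arrays for the same probe set. Cyp2b10 lay at 5.80 to 8.91 in high-fat-fed AM251 mice and at 4.49 to 5.33 in high-fat-fed vehicle mice, and Cyp2b9 stood at 7.34 to 10.56 in the high-fat wild-type vehicle group.

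Cyp2b10, the reporter of CAR, was at 4.49 to 5.33 in high-fat-fed vehicle mice and higher in every high-fat-fed AM251 mouse. Its values in fat were 4.44 to 5.13. In high-fat-fed knockouts its log2 intensity was 8.91, 6.17, 6.82, 7.06 and 6.05 with AM251, against 4.99, 4.76, 4.76 and 4.49 with vehicle. In high-fat-fed wild-type mice it was 5.80, 8.62, 8.50, 6.48 and 8.43 with AM251, against 4.61, 5.33, 4.79, 4.83 and 5.05 with vehicle. In both genotypes the AM251 and vehicle mice did not overlap, and the AM251 mice varied far more among themselves than the vehicle mice. The standard errors below use a spread shared by all liver groups, whose SDs for Cyp2b10 ran from 0.21 to 1.33. The rise in wild-type mice was 2.65 ± 0.56 (n = 5 each, 6.26-fold; limma adjusted p = 0.00599). The difference of 2.25 ± 0.60 in knockouts (n = 5 and 4) did not pass, with an adjusted p of 0.999 and an unadjusted limma p of 0.000568. The genotype difference of the AM251 effect on this diet, knockout minus wild-type, was -0.39 with a 95% interval of -2.06 to 1.27.

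On chow the Cyp2b10 vehicle groups averaged 6.60 in knockouts and 6.20 in wild-type mice, and the AM251 and vehicle mice overlapped. The chow-fed knockouts had 7.70, 8.10, 10.26, 8.27 and 9.22 with AM251, against 5.43, 6.93, 8.05, 6.02 and 6.57 with vehicle. The chow-fed wild-type mice had 7.62, 6.97, 7.12, 5.46 and 8.33 with AM251, against 7.59, 6.03, 5.80, 6.65 and 4.92 with vehicle. All 5 treated knockouts exceeded the mean of their vehicle group, but 1 vehicle mouse, number 17, reached into their range. The log2 change was 2.11 ± 0.56 in knockouts (adjusted p = 0.0939; 2.20 and 0.278 without mice 15 and 17) and 0.90 ± 0.56 in wild-type mice (adjusted p = 0.555), neither called. Over the 4 combinations the mean rise was 1.98 ± 0.29 (limma adjusted p = 0.000454), and 2.00 without mice 15 and 17 (adjusted p = 0.000366).

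Cyp2c29, an abundant epoxygenase of arachidonic acid, had SDs of 0.10 to 0.27 in the liver groups and the most calls of the family in the comparisons made here. In high-fat-fed knockouts it had a log2 intensity of 14.14, 13.88, 13.98, 13.98 and 13.93 with AM251, against 12.86, 12.98, 12.88 and 12.47 with vehicle. In high-fat-fed wild-type mice it had 13.80, 14.13, 14.07, 13.53 and 14.07 with AM251, against 13.04, 12.44, 12.69, 12.63 and 12.36 with vehicle. The treated and vehicle mice were apart in both genotypes. The rise was 1.18 ± 0.13 in knockouts (limma adjusted p = 1.91e-06) and 1.28 ± 0.12 in wild-type mice (adjusted p = 8.87e-09). The genotype difference of this effect was -0.10, with a 95% interval of -0.46 to 0.26.

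On chow the same probe set moved less. The chow-fed knockouts had 13.81, 14.07, 14.10, 13.80 and 14.13 with AM251, against 13.00, 13.45, 13.46, 13.37 and 13.52 with vehicle. The chow-fed wild-type mice had 13.84, 13.74, 13.71, 13.42 and 13.70 with AM251, against 13.68, 13.53, 13.28, 13.58 and 13.34 with vehicle. The knockout groups did not overlap and the wild-type groups did. The rise was 0.62 ± 0.12 in knockouts (limma adjusted p = 0.025), and this call was lost without vehicle mouse 15 (0.53, adjusted p = 0.0786), without mice 15 and 17 (0.53, adjusted p = 0.215) and without AM251 mouse 21, 22 or 24 (adjusted p = 0.0657, 0.0952 and 0.0657). In wild-type mice the change was 0.20 ± 0.12 (adjusted p = 0.54).

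The Cyp2c29 response differed between diets in wild-type mice. The AM251 effect was larger on the high-fat diet than on chow by 1.08 ± 0.17 (limma adjusted p = 0.00127), and Cyp2c29 was the member called of 9 in that comparison, where 0.151% of all probe sets were called and 0.0208% were higher on the high-fat diet. In knockouts the diet difference was 0.56 ± 0.18 (adjusted p = 0.549; 0.65 and 0.594 without mice 15 and 17), and 0 of 9 members and 0% of all probe sets were called, also without those mice; at an unadjusted p under 0.05 limma gave 2 members and 2844 probe sets. The treated mice of all 4 combinations reached 13.42 to 14.14, while vehicle mice lay at 12.36 to 13.04 on the high-fat diet and at 13.00 to 13.68 on chow. This probe set was close to the top of the scale, where the highest value of any liver array was 14.96. Whether the array compressed its highest levels was not tested.

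Cyp2c55, which oxidises arachidonic acid and is inducible through CAR and PXR, responded in the knockouts. In high-fat-fed knockouts it had a log2 intensity of 8.20, 8.0, 8.71, 8.91 and 8.04 with AM251, against 5.73, 5.99, 5.69 and 5.80 with vehicle. In high-fat-fed wild-type mice it had 5.79, 6.98, 6.78, 6.10 and 6.85 with AM251, against 6.08, 6.18, 6.30, 6.24 and 5.78 with vehicle. The knockout groups were more than 2 log2 units apart and the wild-type groups overlapped. The rise was 2.57 ± 0.33 in knockouts (5.93-fold; limma adjusted p = 6.27e-05), and the change was 0.39 ± 0.31 in wild-type mice (adjusted p = 0.77). The genotype difference itself, knockout minus wild-type, was 2.18 ± 0.46 (adjusted p = 0.0161), the only member of 9 called, where 0.357% of all probe sets were called and 0.242% were higher in knockouts.

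On chow Cyp2c55 showed the same order of genotypes without a call. The chow-fed knockouts had 9.42, 9.53, 10.41, 8.83 and 8.95 with AM251, against 6.40, 8.77, 8.62, 8.11 and 8.33 with vehicle. The chow-fed wild-type mice had 8.88, 8.21, 7.86, 8.13 and 8.58 with AM251, against 7.97, 8.36, 7.49, 8.98 and 8.18 with vehicle. The log2 change was 1.38 ± 0.31 in knockouts, whose groups did not overlap (limma adjusted p = 0.054; 1.02 and 0.282 without mice 15 and 17), and 0.14 ± 0.31 in wild-type mice (adjusted p = 0.901). The genotype difference on chow was 1.25 ± 0.44 (adjusted p = 0.597; 0.89 and 0.723 without mice 15 and 17); 0 of 9 members and 0% of all probe sets were called in that comparison, also without those mice, with 2 members and 2706 probe sets at an unadjusted p under 0.05 in limma.

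Cyp2c50, another arachidonic acid epoxygenase, was called with AM251 in 1 of the 4 backgrounds. High-fat-fed wild-type mice had a log2 intensity of 9.07, 9.70, 9.70, 8.86 and 9.13 with AM251, against 8.76, 7.19, 8.34, 8.27 and 8.07 with vehicle, with no overlap. High-fat-fed knockouts had 9.95, 9.51, 9.47, 9.46 and 9.10 with AM251, against 8.99, 9.01, 8.88 and 8.42 with vehicle, again with no overlap. The rise in wild-type mice was 1.17 ± 0.27 (limma adjusted p = 0.0134). It was lost without vehicle mouse 2, the lowest array (0.93, adjusted p = 0.103), and without AM251 mouse 35 or 37 (1.07 each, adjusted p = 0.0618 and 0.0605). The knockout change was 0.67 ± 0.28 (adjusted p = 0.999), and on chow the changes were 0.40 ± 0.27 in knockouts, which was 0.07 without mice 15 and 17, and 0.07 ± 0.27 in wild-type mice. The genotype difference on the high-fat diet, knockout minus wild-type, was -0.50 with a 95% interval of -1.29 to 0.29, not called. Over the 4 backgrounds the mean change was 0.58 ± 0.14, just short of the threshold (limma adjusted p = 0.055). Without mice 15 and 17 it was 0.49 (adjusted p = 0.0752).

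**Figure D2:**
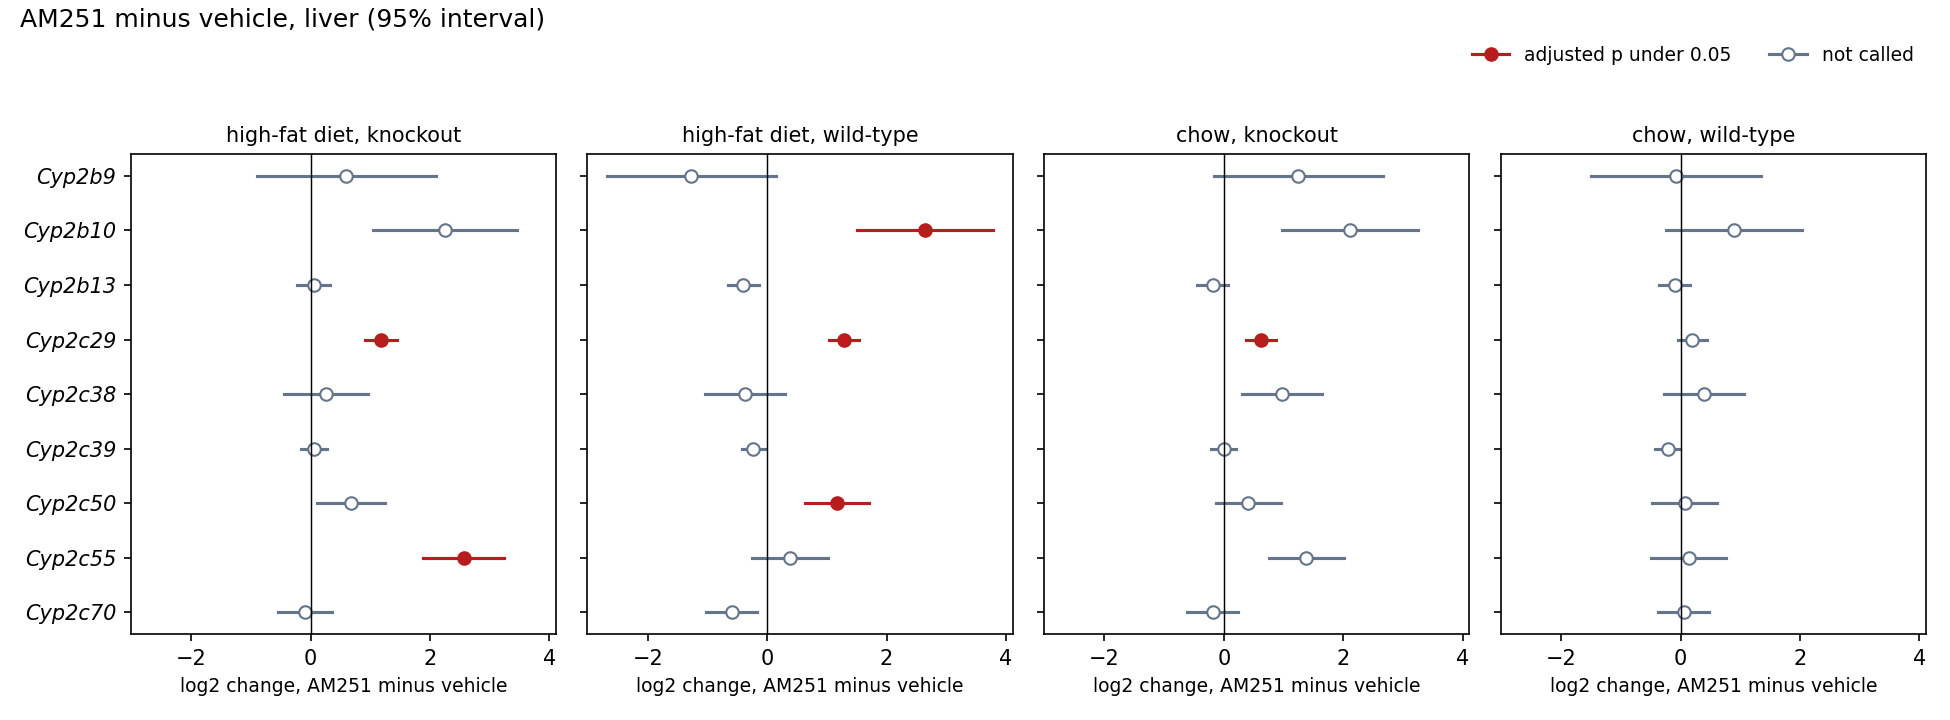
Log2 change, AM251 minus vehicle, of the 9 members in liver in each combination of diet and genotype, with 95% intervals; filled red points passed an adjusted p of 0.05. The 3 calls in high-fat-fed wild-type mice, the 2 in high-fat-fed knockouts and the 1 in chow-fed knockouts are all to the right of 0, and Cyp2c55 stands at 2.57 in high-fat-fed knockouts and at 0.39 in high-fat-fed wild-type mice.

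Under vehicle, the high-fat diet lowered several of the members that rose with AM251. In vehicle-treated knockouts Cyp2c55, Cyp2b10, Cyp2c29 and Cyp2c39 were lower on the high-fat diet than on chow, 4 of 9, where 15.9% of all probe sets were called and 7.14% fell. Without mice 15 and 17 it was 3 of 9, Cyp2b10 being lost, where 6.98% were called and 2.47% fell. In vehicle-treated wild-type mice Cyp2c55, Cyp2c50, Cyp2c70 and Cyp2c29 were lower, 4 of 9, and Cyp2b9 was higher, 1 of 9, where 0.8% of all probe sets were called, 0.274% lower and 0.526% higher. The comparisons of diet under vehicle share their vehicle mice with the AM251 comparisons, so a low high-fat vehicle group enters both.

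Cyp2c55 fell by 2.24 ± 0.33 in knockouts (limma adjusted p = 2.33e-05) and by 2.08 ± 0.31 in wild-type mice (adjusted p = 0.000262), and in neither genotype did the diets overlap. Its high-fat mice lay between 5.69 and 5.99 in knockouts and between 5.78 and 6.30 in wild-type mice, a narrow range in both. Without mice 15 and 17 the change in knockouts was -2.60 (adjusted p = 5.3e-06). Cyp2c29 fell by 0.56 ± 0.13 in knockouts (adjusted p = 0.00278; -0.65 and 0.00432 without mice 15 and 17) and by 0.85 ± 0.12 in wild-type mice (adjusted p = 0.000119), with no overlap in either. The genotype difference of the diet effect was -0.16 ± 0.46 for Cyp2c55 and 0.28 ± 0.18 for Cyp2c29, neither called; without mice 15 and 17 the differences were -0.52 and 0.20, again not called.

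Cyp2b10 fell by 1.85 ± 0.60 in knockouts (limma adjusted p = 0.0304). That call was lost without vehicle mouse 17 of the chow group (-1.49, adjusted p = 0.11) and without mice 15 and 17 together (-1.76, adjusted p = 0.0918). Leaving out any of the 4 high-fat knockouts, or chow mouse 16, also took it past 0.05, at adjusted p values of 0.0506 to 0.0753. So did log2(intensity + 16) (adjusted p = 0.0759), array weights (0.085) and an intensity trend (0.0502). In wild-type mice the Cyp2b10 change was -1.28 ± 0.56 (adjusted p = 0.396). Cyp2c50 fell by 1.07 ± 0.27 in wild-type mice (adjusted p = 0.0408). It lost the call without any of 8 single mice, the highest adjusted p being 0.202 without high-fat mouse 2. The call was also lost with log2(intensity + 16) (limma adjusted p = 0.0605) and with an intensity trend (0.068). In knockouts the Cyp2c50 change was -0.10 ± 0.28, or -0.43 without mice 15 and 17 (adjusted p = 0.387).

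Cyp2b9 had the largest change of the family in the liver comparisons made here. In vehicle-treated wild-type mice its log2 intensity was 9.11, 10.56, 7.34, 7.74 and 8.81 on the high-fat diet, against 5.84, 3.96, 3.52, 4.16 and 3.44 on chow. In vehicle-treated knockouts it was 4.71, 4.30, 3.96 and 3.46 on the high-fat diet, against 3.84, 4.06, 4.61, 3.86 and 4.35 on chow. Only the high-fat wild-type mice stood apart; the other 3 vehicle groups lay at 3.44 to 4.71, apart from chow-fed wild-type mouse 1 at 5.84, against 3.43 to 4.00 in fat. The diet effect was 4.53 ± 0.70 in wild-type mice (23-fold; limma adjusted p = 0.000287) and -0.04 ± 0.74 in knockouts (adjusted p = 0.977; 0.01 and 0.995 without mice 15 and 17).

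The test of that genotype difference was added after the values had been seen. The diet effect was lower in knockouts than in wild-type mice by 4.57 (-4.57 ± 1.02, limma adjusted p = 0.00947; -4.51 and 0.0384 without mice 15 and 17), and Cyp2b9 was the member called of 9, where 3.42% of all probe sets were called and 0.87% were lower in knockouts, or 0.891% and 0.175% without those mice. Seen the other way, high-fat-fed knockouts had a mean of 4.10 and high-fat-fed wild-type mice of 8.71, a difference of -4.61 ± 0.74 (adjusted p = 0.000757). On chow the genotypes differed by -0.04 ± 0.70 (adjusted p = 0.985; -0.09 and 0.982 without mice 15 and 17).

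AM251 left no call on Cyp2b9. High-fat-fed wild-type mice given AM251 had 6.49, 9.29, 5.07, 7.96 and 8.41, a mean of 7.44 against 8.71 with vehicle, and the change of -1.27 ± 0.70 did not pass (limma adjusted p = 0.583). In knockouts given AM251 single mice were high: mouse 45 had 7.66 on the high-fat diet where the other 4 had 3.72 to 4.28, and mice 22 and 24 had 7.24 and 7.06 on chow where the other 3 had 4.04 to 4.50. Those 3 mice also had the highest Cyp2b10 of their groups, 8.91, 10.26 and 9.22. The other mice of those groups, with the low Cyp2b9 values given, had Cyp2b10 at 6.05 to 7.06 on the high-fat diet and 7.70 to 8.27 on chow. High-fat-fed wild-type vehicle mice had Cyp2b9 at 7.34 to 10.56 and Cyp2b10 at 4.61 to 5.33.

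**Figure D3:**
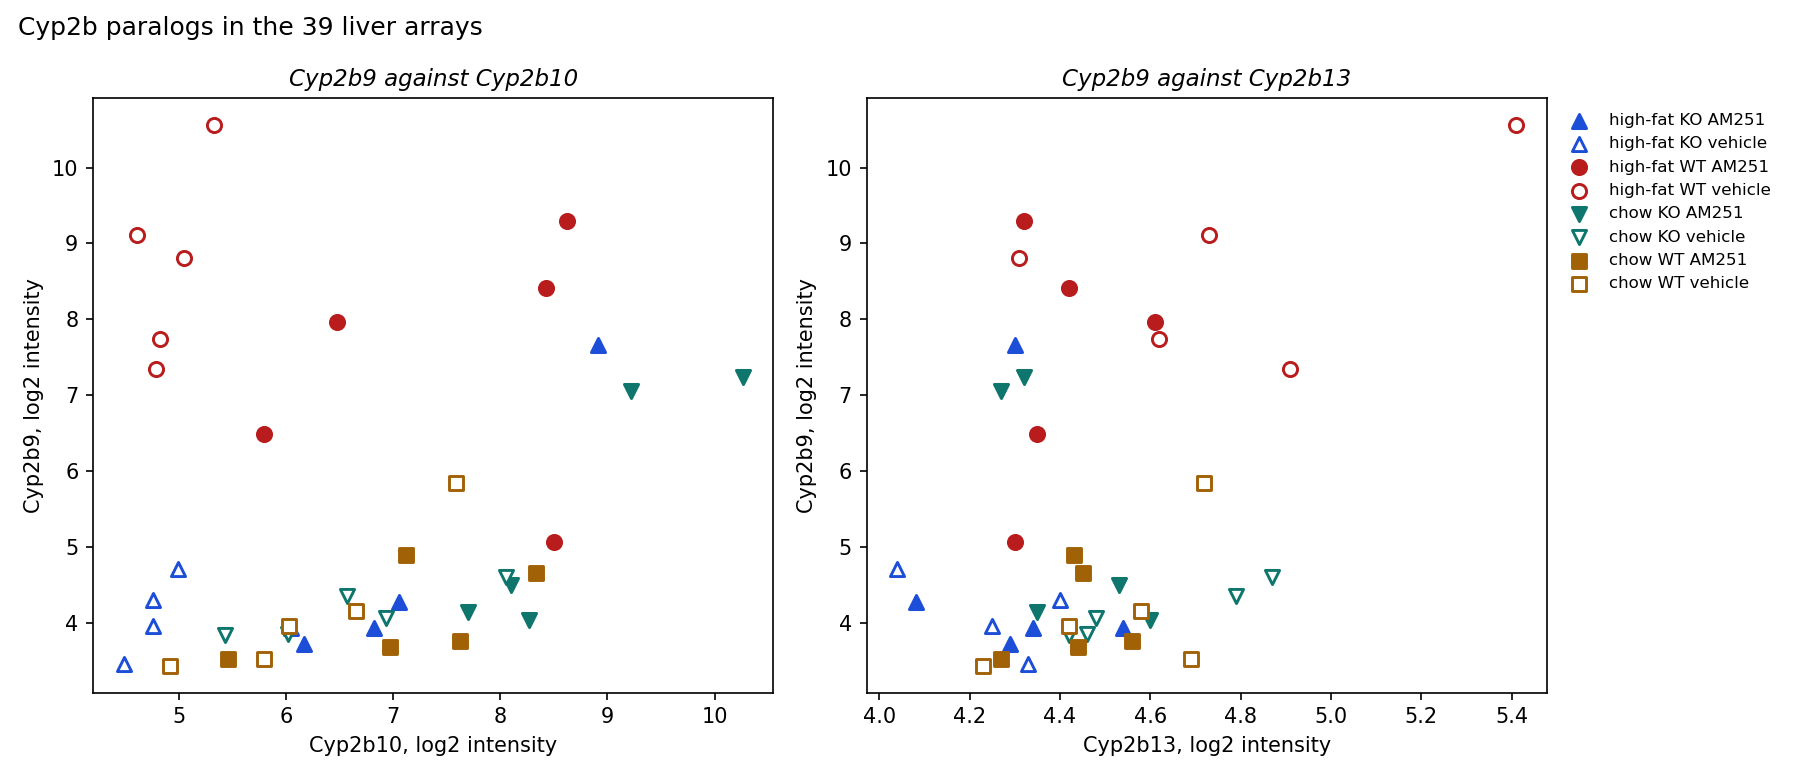
Log2 intensity of Cyp2b9 (vertical axis) against Cyp2b10 (left) and Cyp2b13 (right) in the 39 liver arrays, with filled marks for AM251 and open marks for vehicle. The high-fat wild-type vehicle mice had Cyp2b9 at 7.34 to 10.56 with Cyp2b10 at or below 5.33, and Cyp2b13 stayed between 4.04 and 5.41 in every array.

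Cyp2b13, whose upstream bases differ from those of Cyp2b9 at the 2 positions given above, showed smaller changes and no call in the main fit. Its values spanned 4.04 to 5.41 in liver, against 4.14 to 4.84 in fat, so most liver arrays were within the range of fat. Its highest liver value, 5.41, came from high-fat wild-type vehicle mouse 2, which also had the highest Cyp2b9, 10.56. The diet change in wild-type mice was 0.27 ± 0.13 (limma adjusted p = 0.46), and the difference of high-fat-fed knockouts from wild-type mice was -0.54 ± 0.14 (adjusted p = 0.0536). The genotype difference of the diet effect was -0.62 ± 0.19 (adjusted p = 0.0564; -0.59 and 0.144 without mice 15 and 17). With a mean log2 intensity of at least 4, the last 2 were called (adjusted p = 0.0411 and 0.0436). Sharing of signal between the probe sets of these genes was not tested, since probe sequences were not used here. Only their upstream bases were compared.

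Between genotypes under vehicle, 2 of 9 members were called on the high-fat diet, Cyp2b9 lower and Cyp2c70 higher in knockouts, where 0.516% of all probe sets were called, 0.281% lower and 0.234% higher. On chow 1 of 9 was called, Cyp2c38, lower in knockouts, where 5.48% of all probe sets were called and 3.57% fell; without mice 15 and 17 it was 0 of 9, where 0.769% were called and 0.62% fell. Cyp2b10, Cyp2c29 and Cyp2c55, the members that rose on average with AM251, were not called in either comparison of genotypes, and their differences, knockout minus wild-type, were -0.17, 0.16 and -0.31 on the high-fat diet and 0.40, -0.12 and -0.15 on chow. Without mice 15 and 17 the differences on chow were 0.31, -0.04 and 0.21, so that of Cyp2c55 changed its sign.

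Cyp2c70, the enzyme that makes muricholic acids from chenodeoxycholic acid in mice, was low in high-fat-fed wild-type livers. Under vehicle its log2 intensity was 12.33, 12.43, 12.65 and 12.52 in high-fat-fed knockouts, against 11.51, 11.41, 12.16, 11.21 and 11.13 in high-fat-fed wild-type mice. No knockout overlapped the wild-type mice. The difference was 1.00 ± 0.22 (limma adjusted p = 0.0231), and leaving out knockout mouse 42 or 44, or wild-type mouse 2, 4 or 5, took the adjusted p to 0.0765 to 0.109. Within wild-type mice the high-fat diet lowered Cyp2c70 by 1.01 ± 0.21 (adjusted p = 0.0117), while the change in knockouts was -0.32 ± 0.22 (adjusted p = 0.326; -0.19 and 0.702 without mice 15 and 17). The genotype difference of the diet effect was 0.68 ± 0.31 and was not called (adjusted p = 0.235; 0.82 and 0.248 without mice 15 and 17).

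Cyp2c70 was also low in the AM251 mice of this group. High-fat-fed wild-type mice given AM251 had 11.17, 11.28, 11.62, 10.25 and 10.10, all below the 12.09 to 12.82 of chow-fed wild-type vehicle mice. The change from vehicle was -0.59 ± 0.21 (limma adjusted p = 0.244). In the other backgrounds the AM251 change lay between -0.19 and 0.05, and the -0.19 of chow-fed knockouts was -0.06 without mice 15 and 17.

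**Figure D4:**
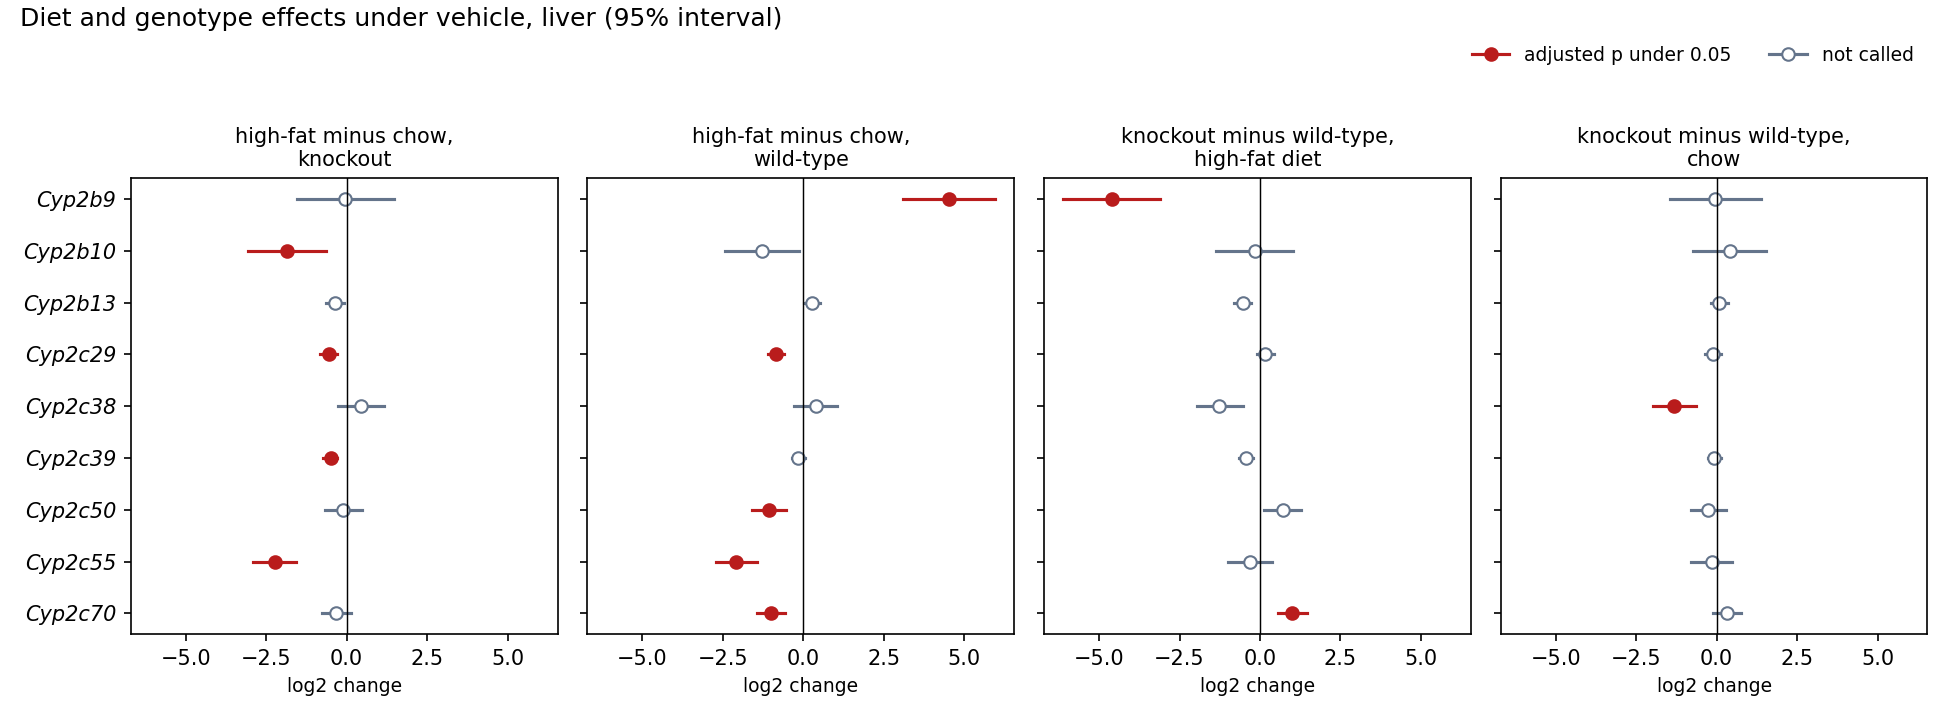
Log2 change of the 9 members in vehicle-treated liver, with 95% intervals, for high-fat minus chow in knockouts and in wild-type mice and for knockout minus wild-type on each diet; filled red points passed an adjusted p of 0.05. Cyp2b9 stands at 4.53 for diet in wild-type mice and at -4.61 for genotype on the high-fat diet, and Cyp2c55 fell with diet in both genotypes.

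Cyp2c38, a further epoxygenase, was lower in chow-fed knockouts than in chow-fed wild-type mice. Under vehicle it had a log2 intensity of 4.18, 4.98, 4.54, 4.97 and 5.05 in chow-fed knockouts, against 6.68, 6.09, 5.78, 5.72 and 6.03 in chow-fed wild-type mice, with no overlap. The difference was -1.32 ± 0.33 (limma adjusted p = 0.0126). It was -1.06 with an adjusted p of 0.212 without mice 15 and 17, and -1.16 with 0.0519 without wild-type mouse 1. On the high-fat diet the difference was -1.26 ± 0.35 (adjusted p = 0.0996). Cyp2c38 was not called with AM251 or with diet. In chow-fed knockouts the AM251 mice, at 5.10 to 6.01, lay above the vehicle mice, with a log2 change of 0.97 ± 0.33 (adjusted p = 0.176; 0.71 and 0.622 without mice 15 and 17).

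Cyp2c39, known for hydroxylating retinoic acid, stayed in a narrow band of 5.60 to 6.54 in liver, close to its 5.28 to 5.96 in fat. It fell by 0.50 ± 0.11 with the high-fat diet in knockouts (limma adjusted p = 0.00124; -0.46 and 0.0163 without mice 15 and 17). In wild-type mice the diet change was -0.15 ± 0.10 (adjusted p = 0.667). High-fat-fed knockouts differed from wild-type mice by -0.43 ± 0.11, just short of the threshold (adjusted p = 0.0506). Its AM251 changes lay between -0.23 and 0.06 in the 4 backgrounds, and that of chow-fed knockouts was 0.04 without mice 15 and 17.

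**Figure D5:**
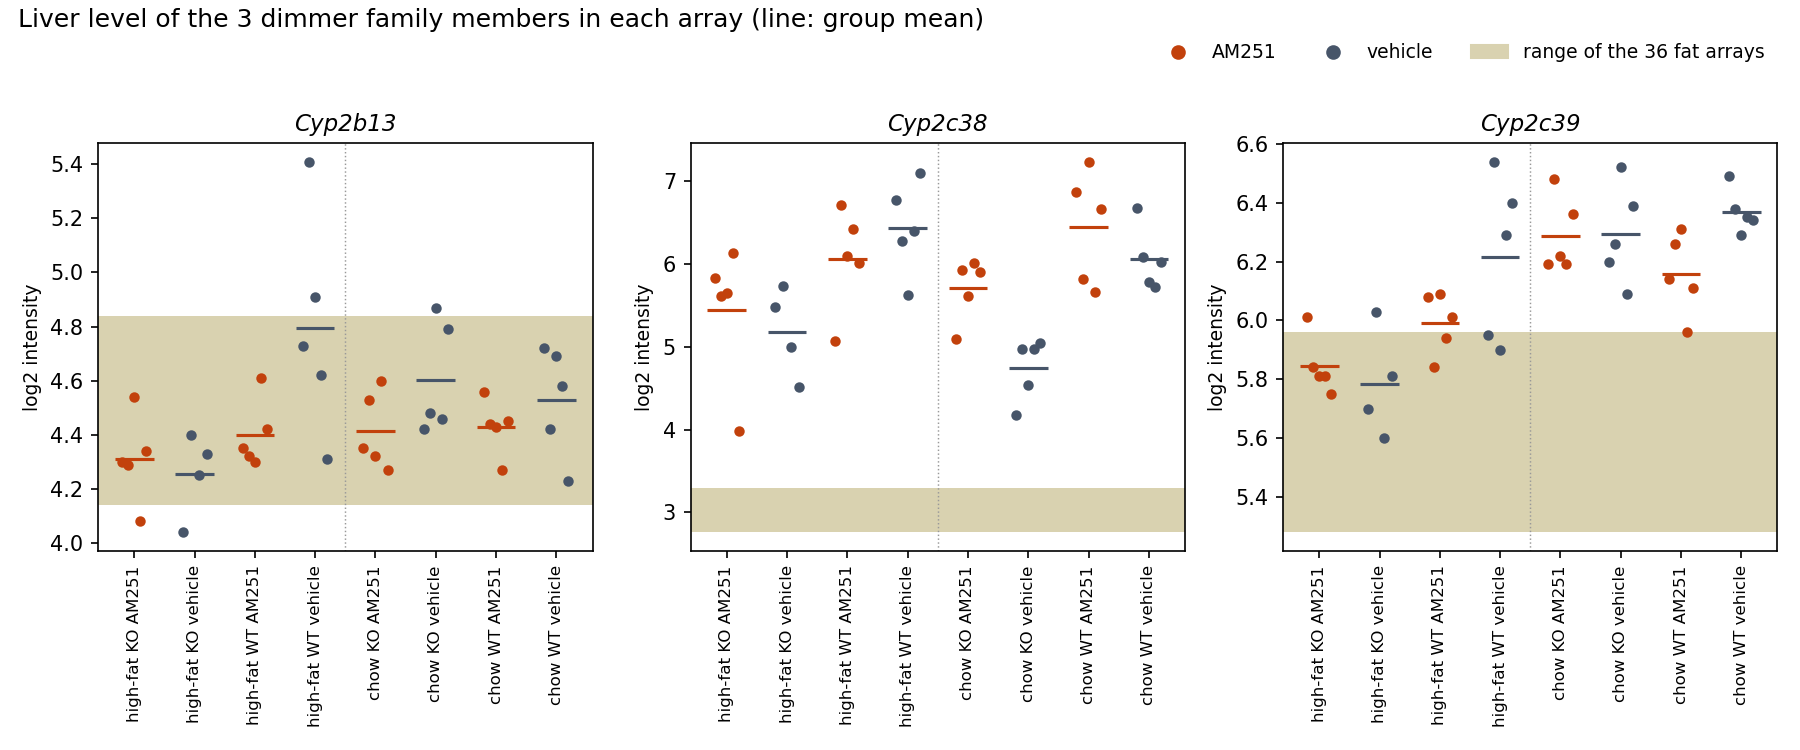
Log2 intensity of Cyp2b13, Cyp2c38 and Cyp2c39 in every liver array (points) by group, with the group mean as a line and the range of the 36 fat arrays as a band. Cyp2b13 lay largely inside its fat range, Cyp2c38 was above its fat range in every liver array, and its chow knockout vehicle mice, at 4.18 to 5.05, were below all chow wild-type vehicle mice.

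Fat served as a tissue of low expression. For Cyp2c29, Cyp2c38, Cyp2c50, Cyp2c55 and Cyp2c70 the lowest liver array was above the highest fat array, for example 12.36 against 5.60 for Cyp2c29 and 7.19 against 3.57 for Cyp2c50. For Cyp2b9, Cyp2b10, Cyp2b13 and Cyp2c39 the tissues overlapped. The tissues appear to have been normalized apart, so these levels are a description with no test. The share of all probe sets that separate in this way was not counted, so the split shows nothing particular to the family. AM251 gave 0 of 9 calls in each fat background, where 0.435% of all probe sets were called in high-fat-fed wild-type mice, 0% in high-fat-fed knockouts, 0.00261% in chow-fed wild-type mice and 0.0104% in chow-fed knockouts. At an unadjusted p under 0.05 limma gave 1 member and 1408 probe sets in high-fat-fed knockouts, 1 and 2976 in chow-fed knockouts, 0 and 3976 in wild-type mice on the high-fat diet, and 0 and 5282 in those on chow.

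The receptors that regulate the family were measured beside it. Of 14 listed regulators 12 had a probe set, and 2 rose with AM251 in high-fat-fed wild-type livers: Nr1i3, which encodes CAR, by 0.75 ± 0.16 (limma adjusted p = 0.00751), and Nr1i2, which encodes PXR, by 0.59 ± 0.14 (adjusted p = 0.0179). Of all probe sets 1.22% were called in high-fat-fed wild-type livers and 0.539% rose. In high-fat-fed knockouts 0 of 12 regulators and 0.00521% of all probe sets were called, and Nr1i2 changed by 0.13 ± 0.15. The genotype differences of these effects, knockout minus wild-type, were -0.72 ± 0.24 for Nr1i3 and -0.46 ± 0.20 for Nr1i2, neither called (adjusted p = 0.359 and 0.704). Averaged over the 4 backgrounds 0 of 12 were called, with or without mice 15 and 17.

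Other genes known as targets of CAR and PXR were examined by the same fit. Of 46 listed, 33 were measured. In high-fat-fed knockouts 0 of 33 were called, with a median log2 change of 0.16, where 0.00521% of all probe sets were called. In high-fat-fed wild-type mice 3 rose and 3 fell, with a median of 0.01, where 1.22% of all probe sets were called and 0.539% rose. Cyp1a2, which metabolises caffeine, rose by 1.05 ± 0.17 (limma adjusted p = 0.000152) and Ces2a, a carboxylesterase, by 0.59 ± 0.12 (adjusted p = 0.00495). Gstm3, a glutathione transferase, fell by 2.00 ± 0.31 (adjusted p = 0.000121). The mean over the backgrounds gave 2 rises of 33, with a median of 0.12, where 0.19% of all probe sets were called and 0.0599% rose. Ephx1, microsomal epoxide hydrolase, rose by 0.32 ± 0.07 (adjusted p = 0.047) and Ugt2b34, a glucuronosyltransferase, by 0.21 ± 0.05 (adjusted p = 0.0366). Without mice 15 and 17 the mean over the backgrounds gave 0 of 33, where 0.214% of all probe sets were called. It was then 0.32 for Ephx1 (adjusted p = 0.0525) and 0.19 for Ugt2b34 (0.0657). With the high-fat diet under vehicle, 14 of 33 fell and 1 rose in knockouts, with a median of -0.36. There 15.9% of all probe sets were called and 7.14% fell. In wild-type mice 6 of 33 fell with the diet, with a median of -0.14, where 0.8% of all probe sets were called and 0.274% fell. The counts in knockouts were the same without mice 15 and 17, with a median of -0.42, where 6.98% of all probe sets were called and 2.47% fell. Ces2a fell by 1.28 ± 0.13 in knockouts (adjusted p = 1.43e-07; -1.28 and 4.03e-06 without mice 15 and 17) and fell by 1.41 ± 0.12 in wild-type mice (adjusted p = 3.23e-09).

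Of 12 other Cyp2b and Cyp2c genes, 3 were measured, and none of them was called with AM251 in liver. Between 0% and 1.22% of all probe sets were called in those comparisons, so no call among 3 is close to that share. Cyp2c23, an epoxygenase of kidney and liver, fell by 0.89 ± 0.17 in wild-type mice on the high-fat diet (limma adjusted p = 0.00482) and was higher by 0.90 ± 0.18 in high-fat-fed knockouts than in wild-type mice (adjusted p = 0.0105). Of all probe sets 0.274% fell in that comparison of diets, and 0.234% were higher in knockouts in that comparison of genotypes.

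Genes with a known sex bias in liver were counted in the comparisons in which Cyp2b9 was called. Of 15 listed male-biased genes 10 were measured. In high-fat-fed vehicle mice 5 of 10 were higher in knockouts than in wild-type mice and 0 lower, with a median of 1.00, where 0.234% of all probe sets were higher. Among them were Hsd3b5, a steroid dehydrogenase, by 3.82 ± 0.67 (limma adjusted p = 0.00219) and Cyp7b1, an oxysterol hydroxylase, by 1.86 ± 0.29 (adjusted p = 0.000627). Among wild-type vehicle mice 3 of 10 fell on the high-fat diet and 0 rose, with a median of -0.78, where 0.274% of all probe sets fell; Hsd3b5 fell by 3.01 ± 0.63 (adjusted p = 0.0114). Of 12 female-biased genes outside the family 9 were measured, and most were not called. In high-fat-fed vehicle mice 1 of 9 was lower in knockouts and 0 higher, with a median of -0.07, where 0.281% of all probe sets were lower and 0.234% higher. Hao2, a peroxisomal hydroxyacid oxidase, differed by -1.30 ± 0.30 (adjusted p = 0.0306). For diet among wild-type vehicle mice 2 rose, 1 fell and 6 were not called, with a median of -0.03, where 0.526% of all probe sets rose and 0.274% fell. Cyp17a1, a steroid hydroxylase, rose by 1.55 ± 0.27 (adjusted p = 0.00115) and Hao2 by 1.35 ± 0.28 (adjusted p = 0.0117). Cyp3a44, a cytochrome P450, fell by 0.83 ± 0.14 (adjusted p = 0.00105). In the genotype difference of the diet effect 4 of 10 male-biased genes were called, all higher in knockouts (2 without mice 15 and 17), and 0 of 9 female-biased genes, where 3.42% of all probe sets were called (0.891% without those mice). With AM251 in high-fat-fed wild-type mice, where Cyp2b9 was not called, 1.22% of all probe sets were called and 0.539% rose. There 4 of 10 male-biased genes rose and 0 fell, with a median of 0.36, and 1 of 9 female-biased genes rose and 1 fell, with a median of 0.05. The part of these genes in the Cyp2b9 result was not tested.

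The probe sets most like 2 of the members were ranked by Pearson correlation over the 39 liver arrays among 13478 probe sets with a mean log2 intensity of at least 5 and 1 symbol. For Cyp2b10 they were Cyp2c29 (r = 0.819), Gstt2 (0.690), Cyp2c55 (0.677), Cmbl (0.666) and Akr1c19 (0.654). For Cyp2c29 they were Cyp2b10 (0.819), Cyp2c50 (0.811), Cyp1a2 (0.708), Cyp2c55 (0.679) and Tk1 (0.667). Over the 37 arrays without mice 15 and 17, Cyp2c29 and Cyp2b10 had an r of 0.827, Cyp2c50 followed Cyp2c29 at 0.816, and Hint2 (0.684) and Ces1d (0.661) took the places of Cmbl and Akr1c19 for Cyp2b10, while Gstt2 (0.713) and Psma7 (0.687) took those of Cyp2c55 and Tk1 for Cyp2c29. The arrays share the 8 groups, so these values follow the group means as well as the spread between mice.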

How the data were processed

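RNA of liver and epididymal fat from single mice was measured on one-colour arrays of a custom mouse design with biotin-labelled cRNA, per the labels' protocols. The deposited intensity values are on a linear scale, 1 value per probe set and array, made by the authors with RMA per the submitters' processing notes; the version is not given in the sources used here. Array medians were 25.8 to 28.7 in liver and 44.3 to 48.0 in fat, so the tissues were fitted apart. All 75 columns were mapped by title and 0 were left out.

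Intensities were taken to log2 and all 38385 probe sets were fitted with limma 3.58.1 (R 4.3.3), estimating a mean for each of the 8 groups of a tissue together, with moderated two-sided tests, Benjamini-Hochberg adjustment over all probe sets and a threshold of 0.05. All groups of a tissue shared the estimate of the spread of a probe set, so a standard error does not follow the spread of the compared groups alone. The number of arrays limits the precision. Numbers given for mice are those of the sample labels. Every member with a probe set is described; list genes named are among the 4 with the smallest p. The platform annotation gave 24478 probe sets 1 symbol, 65 several and 13842 none listed. Members and lists were chosen with earlier results of these data known. RefSeq promoter windows (GRCm38.p6) held all 10 genes and were aligned with Biopython 1.88. The fit was tested on simulated data. Alternatives were quantile normalization, log2(intensity + 16), a mean log2 intensity of at least 4, 1 probe set per gene, array weights, an intensity trend, the compared groups only, a replicate block and leaving out each mouse; leaving out mice 15 and 17 together and the genotype difference of the diet effect were added after the values were seen.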

Additional observations from a re-analysis of the deposited data

Results flagged for a closer look

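Of 126 sets of 4 or 5 arrays (a member in a group), 8 held a single array far from the rest of its group; chance alone flags about 1 in 20 sets. In liver, Cyp2b9 in high-fat knockout AM251 mouse 45 was 7.66 against 3.72 to 4.28 in the other mice. Cyp2c38 in high-fat knockout AM251 mouse 49 was 3.98 against 5.62 to 6.14. Cyp2c29 and Cyp2c55 in chow knockout vehicle mouse 15 were 13.00 and 6.40, against 13.37 to 13.52 and 8.11 to 8.77. In fat, Cyp2b10 in high-fat wild-type AM251 mouse 33 was 4.79, Cyp2b9 in high-fat wild-type vehicle mouse 6 was 3.69, Cyp2c38 in chow wild-type AM251 mouse 13 was 3.11 and Cyp2c39 in chow knockout vehicle mouse 19 was 5.96, all at the low levels of that tissue.

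In 3 tests of a difference between effects a member passed in limma over all probe sets. The AM251 effect on Cyp2c55 in high-fat-fed mice was larger in knockouts than in wild-type mice by 2.18 (adjusted p = 0.0161), the AM251 effect on Cyp2c29 in wild-type mice was larger on the high-fat diet than on chow by 1.08 (adjusted p = 0.00127), and the diet effect on Cyp2b9 differed between knockouts and wild-type mice by -4.57 (adjusted p = 0.00947).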

How the results depend on the processing

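The number of arrays per group, 3 to 5, limits the precision. No called change turned its sign. Apart from single mice left out, the number of members called stayed within 1.5 times its value in 9 of 14 liver comparisons, and in fat it was 0 throughout. For the AM251 effect in chow-fed knockouts, 1 member was called, against 2 with a mean log2 intensity of at least 4 and 0 with array weights, with the compared groups only and without mice 15 and 17. For knockout against wild-type mice on the high-fat diet 2 were called, against 4 with a mean of at least 4, 4 with 1 probe set per gene and 5 with array weights; on chow 1 was called, against 0 with array weights, with the compared groups only and without mice 15 and 17. For the genotype difference of the diet effect 1 was called, against 2 with a mean of at least 4. The causes were not tested.

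With single mice left out, the members called ranged from 2 to 4 for AM251 in high-fat-fed wild-type mice, 0 to 2 in chow-fed knockouts, 3 to 4 for the mean over backgrounds, 1 to 4 for knockout against wild-type mice on the high-fat diet, 0 to 1 on chow, 4 to 5 for diet in wild-type mice, 3 to 4 for diet in knockouts, and 1 to 2 for the genotype difference of the diet effect; the others kept their counts.

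The vehicle groups of wild-type mice share sample numbers 1 to 5, but these did not pair the mice: same-numbered deviations correlated at -0.002, 0.159, -0.182, 0.035 and 0.086, and number 2 alone correlated best with itself. With the number as a replicate block, a fit on the compared groups only, 3 members were called for diet in wild-type mice instead of 5, without Cyp2c50 (adjusted p = 0.0715) and Cyp2c70 (0.0902), and 194 probe sets instead of 307. The compared groups only, with no replicate block, gave 4 members, already without Cyp2c50 (0.0926) and with Cyp2c70 at 0.045, and 119 probe sets.

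Counts over all probe sets moved further. Over the alternatives other than single mice left out, 469 for AM251 in high-fat-fed wild-type livers became 366 to 788, 48 in chow-fed knockouts 0 to 58, 73 for the mean over backgrounds 40 to 177, 137 for the genotype difference on the high-fat diet 108 to 293, 58 for the diet difference in wild-type mice 48 to 99, 198 and 2104 for genotype on the high-fat diet and on chow 190 to 690 and 3 to 2357, 307 and 6121 for diet in wild-type mice and knockouts 119 to 445 and 1357 to 6220, 1311 for the genotype difference of the diet effect 234 to 1548, and 167 for AM251 in high-fat wild-type fat 5 to 316. Counts of 0 became at most 1, and the 1 and 4 of chow-fed wild-type and knockout fat became 0 to 1 and 2 to 7. With single mice left out they also moved by over 1.5 times. In liver, the AM251 count became 307 to 514 in high-fat-fed wild-type mice (lowest without vehicle mouse 2), 2 to 682 in chow-fed knockouts (AM251 mouse 22, vehicle mouse 18) and 33 to 348 for the mean (highest without chow wild-type vehicle mouse 5). The genotype difference on the high-fat diet became 77 to 181 (lowest without AM251 knockout 46) and the diet difference in wild-type mice 44 to 88 (highest without high-fat vehicle mouse 1). Genotype on the high-fat diet became 65 to 285 (lowest without wild-type mouse 2) and on chow 966 to 3193 (knockouts 17 and 18). Diet in wild-type mice became 137 to 324 (lowest without high-fat mouse 2), diet in knockouts 3910 to 6692 (lowest without chow mouse 17) and their difference 762 to 2039 (high-fat knockout 42, chow knockout 18). In fat, 167 became 34 to 679 (AM251 mice 37 and 34), 1 became 0 to 403 (highest without AM251 mouse 10) and 4 became 0 to 4; counts of 0 became at most 8. The mean over backgrounds uses all 8 groups, so no fit with the compared groups only was run for it.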
